A study of Mus musculus with 31 samples.

Results

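Fibronectin and 7 matricellular or matrix-associated genes were followed in mouse tumors after radiotherapy (RT). The genes were Fn1, Thbs1, Thbs2, Spp1, Tnc, Postn, Sparc and Vcan, chosen by name as 8 of the 46072 genes in the expression tables. The choice was made knowing that Fn1 was more than 3-fold higher in MC-38 tumors at 12 h after RT. That value chose the set, so the levels of these genes in irradiated MC-38 tumors against control are given below as a description, without a test.

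Messenger RNA was measured in 31 tumors, 1 per mouse. RM-9, a mouse prostate cancer line, or MC-38, a mouse colon cancer line, was injected under the skin of the hind leg of wild-type male C57BL/6J mice bought as young adults, and the tumors were left untreated or given a single local dose of 15 Gy. RM-9 tumors comprised 4 controls, 4 collected 3 h after RT, 4 collected at 12 h and 3 collected at 24 h, and MC-38 tumors comprised 4 mice in each of the same groups. Both lines grew outside their organ of origin, and no other gene or drug was altered in any group. The controls carried the 3 h label, so the 12 h and 24 h groups had no control of their own time, and the 3 comparisons with control in a tumor model shared the same 4 control mice.

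Levels are in TPM, a share of transcripts that the authors computed per gene length and that sums to a fixed total in each library. Depth, computed from the deposited values, was 21.4 to 29.4 M reads per library. The mitochondrial transcript mt-Nd4l alone took 12.9 to 43.5% of the TPM of a library. The 10 epithelial markers summed to 930 to 1323 TPM in the RM-9 group means, where 6 of them had a mean of 0.5 TPM or more. They were near 0 in MC-38 tumors, at 1.67 to 2.11 TPM, although MC-38 is named as a colon cancer line. Skeletal muscle transcripts ranged over the libraries from 2.75 to 12505 TPM, the highest in the first MC-38 control mouse. For MC-38 against control, the leading values and the counts of pathway genes are also given without this mouse. In RM-9 the muscle markers had a mean of 1353 TPM in control (262 to 2507), 254 at 3 h (2.95 to 982), 282 at 12 h (2.75 to 1017) and 1134 TPM at 24 h (246 to 2493). Their part in the RM-9 comparisons with control was not tested.

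Fibronectin is secreted as a dimer, is pulled into fibrils by cells through integrins, and forms an early scaffold on which collagens and other proteins are laid down in wounds and tumors. Matricellular proteins sit in the same matrix but mainly signal to cells rather than bear load. The thrombospondins encoded by Thbs1 and Thbs2 restrain angiogenesis through CD36 and CD47, and thrombospondin-1 can activate latent TGF-beta. Osteopontin (Spp1) and periostin (Postn) bind integrins, tenascin-C (Tnc) loosens cell adhesion, SPARC binds collagen, and versican (Vcan) is a large proteoglycan that binds hyaluronan.

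The promoters are shown for Thbs2, whose level differed between the irradiated MC-38 groups, and for Postn, whose level did not pass the test, so that the 2 can be compared. RefSeq promoter windows, from 250 bases before to 50 bases after a transcript start, were matched to 6 of the 8 genes on build GRCm38.p6, and the 250 bases before the start are printed here. Capitals mark the TATA box, which for Thbs2 lies on the opposite strand to the gene.
Thbs2, chr17:14694263-14694512, minus strand: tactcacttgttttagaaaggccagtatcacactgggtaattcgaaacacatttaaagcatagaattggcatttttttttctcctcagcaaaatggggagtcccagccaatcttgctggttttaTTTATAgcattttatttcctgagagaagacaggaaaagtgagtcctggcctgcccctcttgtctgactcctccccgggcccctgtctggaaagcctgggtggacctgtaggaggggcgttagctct
Postn, chr3:54360857-54361106, plus strand: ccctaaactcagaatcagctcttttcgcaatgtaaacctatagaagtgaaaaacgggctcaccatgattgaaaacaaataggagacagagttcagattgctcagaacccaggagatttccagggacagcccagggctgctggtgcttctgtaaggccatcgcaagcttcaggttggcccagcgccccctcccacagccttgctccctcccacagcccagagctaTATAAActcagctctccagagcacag
The TATA box TATAAA was searched on both strands and was present in 4 of the 6 windows, those of Thbs2, Spp1, Tnc and Postn, against 13.6% of all 32851 windows. It began 26 bases before the start in Postn and 126 bases before it in both Thbs2 and Tnc. The GC box GGGCGG was present in Tnc and Vcan, against 35.7% of all windows, and a p53 half-site in Sparc, against 8.36%. The AP-1 site TGANTCA, the TEAD site GGAATG and the CArG box had no match in the 6 windows and were found in 7.81%, 14.7% and 1.63% of all windows. No searched motif overlapped another in these windows, and each match describes letters only.

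The 8 genes spanned a wide range in TPM, a scale that divides by a gene length. The order of genes close in level can depend on that length. The ratio of deposited FPKM to coverage (mean read depth per base), against its usual value, ran from 1.00 for Thbs2 to 2.99 for Postn. It also differed between tumors for the same gene, most for Vcan (1.31 to 2.41) and Fn1 (1.47 to 1.87). Its part in TPM differences between tumors was not tested. Spp1 was the highest, at 990 to 3051 TPM in single tumors, and Vcan the lowest, at 1.34 to 6.87 TPM. Sparc (296 to 704 TPM) and Fn1 (86.1 to 563 TPM) followed Spp1, and Postn lay at 45.7 to 243 TPM. Thbs1, Thbs2 and Tnc stayed between 9.004 and 114 TPM in every tumor. In all of these bulk samples, more cells of a type and more RNA per cell cannot be told apart.

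**Figure D1:**
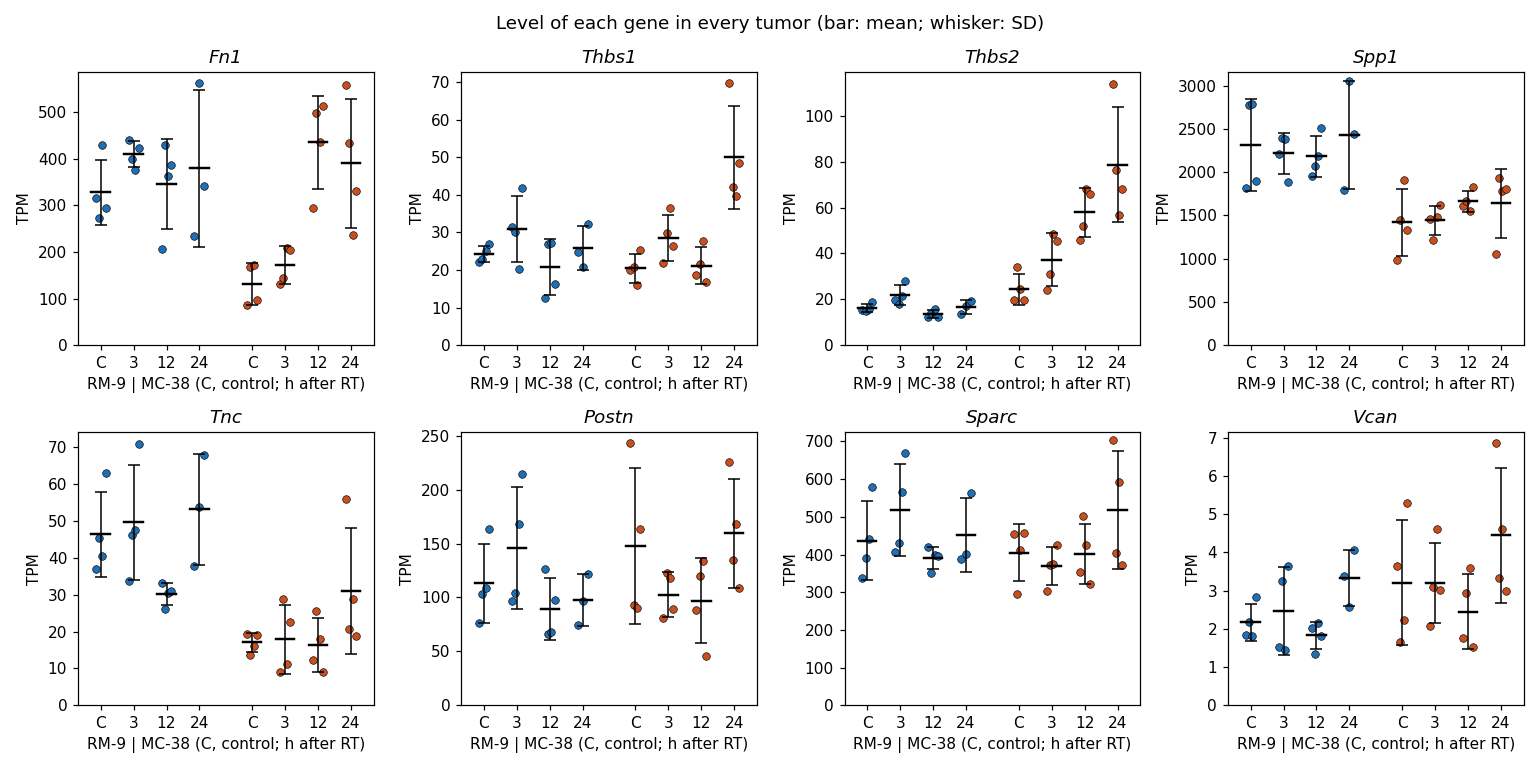
Level in TPM (y axis, linear from 0) of each gene in every tumor, with RM-9 in blue and MC-38 in orange; C is control and 3, 12 and 24 are hours after RT, bars are group means and whiskers 1 SD over 4 mice (3 for RM-9 at 24 h). In MC-38, Fn1 at 12 h (293 to 513 TPM) and Thbs1 at 24 h (39.6 to 69.8 TPM) lie above every control tumor, and the RM-9 groups overlap for most genes.

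Fn1 (ENSMUSG00000026193, chr1:71585520-71653200, minus strand, GRCm38) was low in control MC-38 tumors, at 86.1, 167, 172 and 97.4 TPM in the 4 mice. The RT 3 h tumors held 131, 144, 209 and 204 TPM, the 12 h tumors 293, 499, 435 and 513 TPM, and the 24 h tumors 559, 434, 236 and 331 TPM. The 3 h group overlapped with control, whereas every tumor at 12 h and 24 h lay above every control. Of the 8 genes, 2 had that separation at 12 h and 3 at 24 h, against 34.5% and 14.8% of all genes tested. The means were 131 ± 45.3 (SD, n = 4) in control, 172 ± 40.3 at 3 h, 435 ± 100 at 12 h and 390 ± 139 TPM at 24 h. These are 1.31, 3.33 and 2.98 times the control mean, the value at 12 h being the one that chose the set. The next gene below the 3-fold mark at 12 h was Thbs2, at 2.37 times control. Without the first control mouse, the log2 difference of Fn1 was 1.59 in place of 1.77 at 12 h and 1.39 in place of 1.57 at 24 h.

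In RM-9 tumors, Fn1 was higher in control than in MC-38, and no difference after RT passed the test. The control tumors held 315, 274, 430 and 294 TPM, a mean of 328 ± 70.0 (SD, n = 4). The means after RT were 410 ± 28.1 at 3 h, 346 ± 97.2 at 12 h and 379 ± 168 TPM at 24 h (n = 3), and all 3 groups overlapped with control. The log2 fold changes from limma were 0.34 (SE 0.25, adjusted p = 0.411) at 3 h, 0.05 (SE 0.25, adjusted p = 0.915) at 12 h and 0.14 (SE 0.27, adjusted p = 0.999) at 24 h. In order of mean Fn1 level in TPM, the 2 lowest groups of the 8 were MC-38 control and MC-38 RT 3 h. The other 6, from 328 to 435 TPM, did not differ from their neighbours beyond their SD on this scale. Levels between the tumor models depended on the scale. For Fn1, MC-38 control minus RM-9 control was -1.37 on the log2 scale in TPM and -1.81 without mitochondrially encoded genes. The order in TPM therefore does not show that irradiated MC-38 tumors reached the Fn1 level of RM-9.

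Thbs2 (ENSMUSG00000023885, chr17:14665500-14694262, minus strand) had a higher MC-38 group mean at each later time, from 24.4 ± 6.73 in control to 37.3 ± 11.6 at 3 h, 57.9 ± 10.8 at 12 h and 78.8 ± 24.9 TPM at 24 h (SD, n = 4 each). The control mice held 19.7, 33.9, 24.4 and 19.6 TPM and the 24 h mice 114, 76.3, 56.5 and 68.1 TPM. The 12 h mice, at 45.9, 51.8, 67.9 and 66.0 TPM, were also all above the controls, while the 3 h mice, at 24.1, 31.1, 48.4 and 45.5 TPM, overlapped with them. The group means at 12 h and 24 h were 2.37 and 3.22 times control. Among all genes tested in MC-38, every tumor lay above every control in 34.5% at 12 h and in 14.8% at 24 h. Without the first control mouse, the log2 difference of Thbs2 was 1.16 in place of 1.25 at 12 h and 1.57 in place of 1.66 at 24 h.

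In RM-9 tumors Thbs2 stayed between 12.1 and 28.2 TPM. Its mean was 16.2 ± 1.79 in control, 21.9 ± 4.42 at 3 h, 13.5 ± 1.62 at 12 h and 16.6 ± 2.91 TPM at 24 h. The log2 fold change at 3 h was 0.41 (SE 0.14), with 3 of 4 mice above every control and adjusted p = 0.143. In a Dunnett comparison on TPM, which adjusts for the 3 times but not over genes, the same difference lay just inside the threshold of 0.05. At 12 h and 24 h the adjusted p was 0.221 and 0.999.

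Thbs1 (ENSMUSG00000040152, chr2:118111876-118127133, plus strand) stood apart from the other thrombospondin in MC-38 tumors in its timing. The control mice held 20.0, 20.8, 15.9 and 25.2 TPM, a mean of 20.4 ± 3.82, and the 12 h mice 18.5, 21.5, 27.8 and 16.7 TPM, which is 1.03 times control. On the 3 other scales tried, the 12 h mean was 0.79 to 0.94 times control, so its direction at 12 h depended on the scaling. At 24 h the mice held 69.8, 42.1, 39.6 and 48.4 TPM, a mean of 49.98 ± 13.7 and 2.44 times control, with 4 of 4 mice above every control mouse. Of all genes tested, 14.8% had that separation at 24 h. The log2 difference at 24 h was 1.25 both with all mice and without the first control mouse. At 3 h the mean was 28.6 ± 6.09 TPM, with 3 of 4 mice above every control. In RM-9 the mean was 24.2 ± 2.12 in control, 30.95 ± 8.78 at 3 h, 20.7 ± 7.45 at 12 h and 25.9 ± 5.85 TPM at 24 h, and the adjusted p was 0.448, 0.420 and 0.999.

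**Figure D2:**
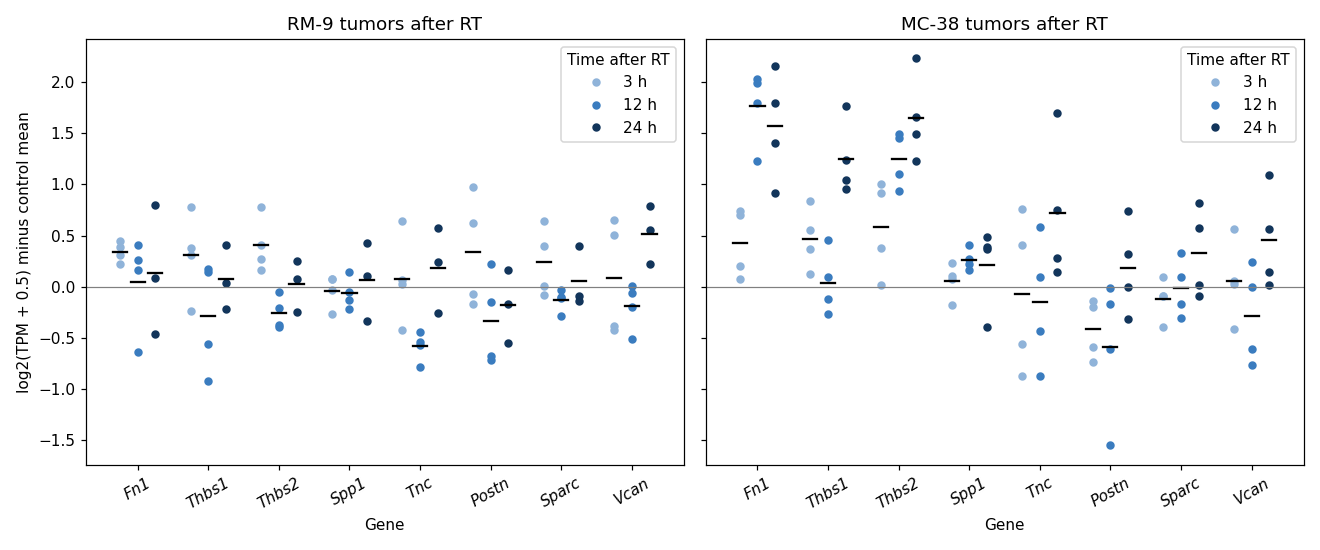
log2(TPM + 0.5) of each irradiated tumor minus the mean of the 4 controls of the same model (y axis), for RM-9 on the left and MC-38 on the right, with lighter to darker points for 3, 12 and 24 h and bars at the means. In MC-38, Fn1 and Thbs2 lie above 0 in every tumor at 12 h and 24 h, and the RM-9 points scatter around 0 for most genes.

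The other integrin ligands and matrix modulators overlapped between control and irradiated MC-38 tumors at each time. Spp1 (ENSMUSG00000029304, chr5:104435118-104441050) had a mean of 1419 ± 383 in control and 1643 ± 400 TPM at 24 h. Its lowest MC-38 tumor at 24 h held 1051 TPM and the other 3 held 1784 to 1933 TPM. Postn (ENSMUSG00000027750, chr3:54361109-54391037) held 148 ± 72.3 in control, 97.0 ± 39.2 at 12 h and 159 ± 50.4 TPM at 24 h. Sparc (ENSMUSG00000018593, chr11:55394500-55420080) held 405 ± 75.8 in control and 518 ± 157 TPM at 24 h. Tnc (ENSMUSG00000028364, chr4:63959785-64047015) held 17.1 ± 2.61 in control, with 31.01 ± 17.1 TPM at 24 h resting largely on the first 24 h mouse at 55.9 TPM. Vcan (ENSMUSG00000021614, chr13:89655312-89742509) held 3.21 ± 1.63 in control and 4.45 ± 1.76 TPM at 24 h. Some of these directions depended on the scale. The 24 h mean of Postn was 1.08 times control in TPM and 0.841 to 0.972 times on the 3 other scales, and with median-ratio scaling Spp1 was 0.974 times control at 24 h and 0.940 times at 12 h, in place of 1.16 and 1.17. Small differences of Spp1 and Tnc at 3 h turned in the same way. Without the first control mouse, which held the highest Postn of its group, the log2 difference of Postn was -0.31 in place of -0.59 at 12 h and 0.46 in place of 0.18 at 24 h.

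In RM-9 tumors, none of the 8 genes passed the test at any time. By limma with Benjamini-Hochberg adjustment, 0 of 8 were called in each of the 3 RT groups against control, where at 3, 12 and 24 h 0.228%, 8.37% and 0% of the 14013 genes tested were called. At an unadjusted p under 0.05 there were 1, 1 and 0 of them, Thbs2 at 3 h and Tnc at 12 h. The 4 RM-9 tumors at 12 h held 33.3, 26.1, 30.4 and 31.1 TPM of Tnc, all below the controls at 37.0, 45.3, 40.4 and 63.0 TPM. That difference was -0.59 on the log2 scale (SE 0.22), with an adjusted p of 0.0893 and an exact permutation p of 0.0286, the smallest that 4 mice against 4 allow. Tnc was the only 1 of the 8 genes with every RM-9 tumor at 12 h below every control, and 19.4% of all genes tested had that pattern. On 2 of the other scales 3 of the 4 tumors lay below every control. The 24 h Vcan level in RM-9 was 3.333 ± 0.741 (SD, n = 3) against 2.170 ± 0.477 TPM in control, a log2 fold change of 0.52 (SE 0.26, adjusted p = 0.999). Its 24 h mean was 1.54 times control in TPM and 1.33 times on scaled coverage.

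The irradiated MC-38 tumors at 24 h were next compared with those at 3 h, to ask whether the set differed late against early after RT. The 12 h value that chose the set does not enter the log2 fold changes of this comparison. The 12 h and control tumors did enter its SE and adjusted p, since the 4 groups shared 1 fit. The genes were also chosen with other results of these tumors known, so the comparison is not independent support. Thbs2 and Fn1 were higher at 24 h, with calls that several settings ended. The log2 fold change of Thbs2 was 1.07 (SE 0.25, adjusted p = 0.0351) and that of Fn1 was 1.14 (SE 0.28, adjusted p = 0.0468), each with 4 of 4 mice at 24 h above every mouse at 3 h. The TPM means were 2.11 and 2.27 times those at 3 h. Thbs1 had a log2 fold change of 0.78 (SE 0.21) and the same separation of the mice, with adjusted p = 0.0607. For all 3 genes the exact permutation p was 0.0286, the smallest 4 against 4 allows.

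The other 5 genes did not pass the threshold between 3 h and 24 h in MC-38. Tnc differed by 0.79 on the log2 scale with a 95% interval from -0.04 to 1.61, Postn by 0.60 (-0.13 to 1.34), Sparc by 0.45 (0.02 to 0.88), Vcan by 0.40 (-0.30 to 1.09) and Spp1 by 0.16 (-0.25 to 0.56). The adjusted p ranged from 0.327 for Sparc to 0.810 for Spp1. In all, 2 of 8 genes passed the adjusted threshold against 2.17% of the 15698 genes tested, and 3 of 8 had every 24 h mouse above every 3 h mouse against 6.05%. The median over the 8 genes was 0.69 on the log2 scale and over all genes 0.03.

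Both calls were lost without a filter on low values (adjusted p = 0.0984 for Fn1 and 0.0741 for Thbs2), in a limma fit of only the groups compared (0.0763 and 0.0896) and with the mouse number as a replicate block (0.0691 and 0.0611). That of Fn1 was also lost with eBayes without a trend (0.0600). Leaving out 1 mouse at a time, Fn1 kept an adjusted p under 0.05 in 1 of 8 fits, that without 24 h mouse 3, and the adjusted p ranged from 0.0288 to 0.151 with log2 fold changes of 0.94 to 1.36. Thbs2 kept it in 3 of 8 fits, those without 3 h mouse 3, 3 h mouse 4 or 24 h mouse 3, with adjusted p from 0.0291 to 0.123 and log2 fold changes of 0.88 to 1.22. The first 24 h mouse had the highest 24 h value of Fn1, Thbs1, Thbs2, Tnc, Postn, Sparc and Vcan, all of the 8 genes but Spp1. Without it the log2 fold change was 0.94 for Fn1, 0.88 for Thbs2 and 0.61 for Thbs1.

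In RM-9 tumors the same late comparison gave log2 values of -0.20 for Fn1 (adjusted p = 0.669), -0.38 for Thbs2 (adjusted p = 0.191) and -0.23 for Thbs1 (adjusted p = 0.611). There, 0 of 8 genes and 0% of all genes tested were called, with 1 of 8 at an unadjusted p under 0.05. Whether this late change differed by tumor model was tested as 1 contrast, subtracting the log2 value of RM-9 from that of MC-38. It was 1.46 for Thbs2 (SE 0.31, adjusted p = 0.0610), 1.34 for Fn1 (SE 0.41, adjusted p = 0.158), 1.01 for Thbs1 (SE 0.34, adjusted p = 0.189) and 1.13 for Postn (SE 0.50, adjusted p = 0.305). No gene of the 8 passed the adjusted threshold, against 0.0912% of the 15358 genes tested, and 5 of 8 had an unadjusted p under 0.05. The labels give no sequencing run, and any batch that differed between the tumor models cannot be told apart from the model. The adjusted p of Thbs2 was 0.0154 with median-ratio scaling, 0.0196 without mitochondrially encoded genes, 0.0169 on scaled coverage and 0.0474 with a pseudocount of 1 TPM.

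**Figure D3:**
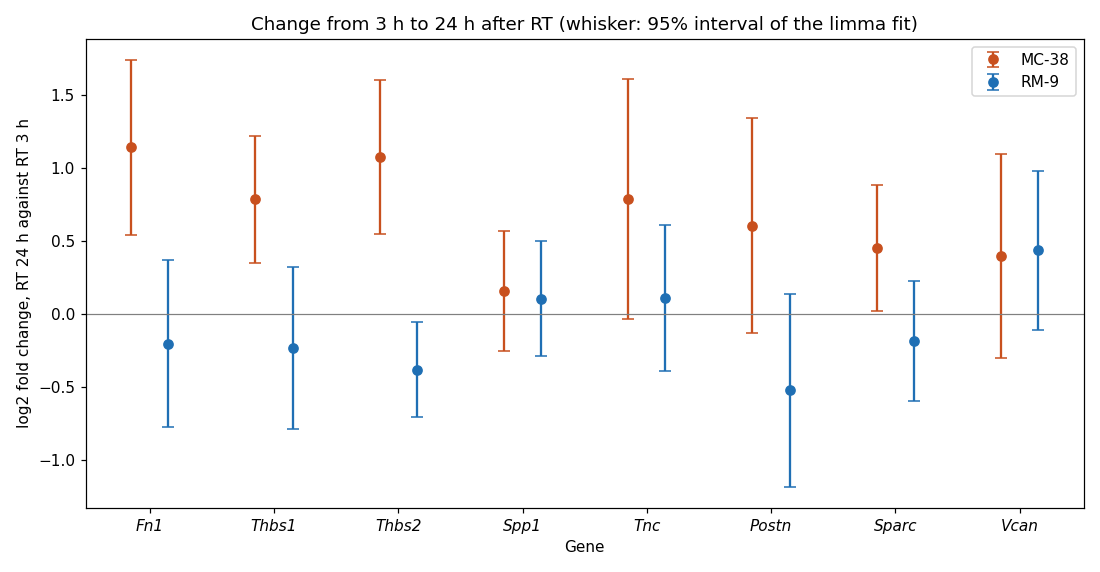
log2 fold change of RT 24 h against RT 3 h (y axis) for each gene in MC-38 (orange) and RM-9 (blue), with whiskers for the 95% interval of the limma fit. For Fn1, Thbs1 and Thbs2 the MC-38 intervals lie above 0, at log2 fold changes of 1.14, 0.78 and 1.07, and the RM-9 points lie below 0.

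The scale of the values mattered for the sizes, since the median log2 difference of all genes in MC-38 was 0.19 at 3 h, 0.33 at 12 h and 0.22 at 24 h against control. In RM-9 it was 0.06, -0.19 and -0.04. The 4 scales were TPM, TPM with median-ratio scaling, TPM without mitochondrially encoded genes and deposited coverage scaled to a common sum. Across them, Fn1 in MC-38 at 12 h was 2.68 to 3.33 times control and at 24 h 2.60 to 2.98 times. Thbs2 was 1.87 to 2.37 times control at 12 h and 2.76 to 3.22 times at 24 h, and Thbs1 2.03 to 2.44 times at 24 h. The late against early ratio in MC-38 varied less, from 2.26 to 2.32 for Fn1 and from 2.11 to 2.13 for Thbs2.

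**Figure D4:**
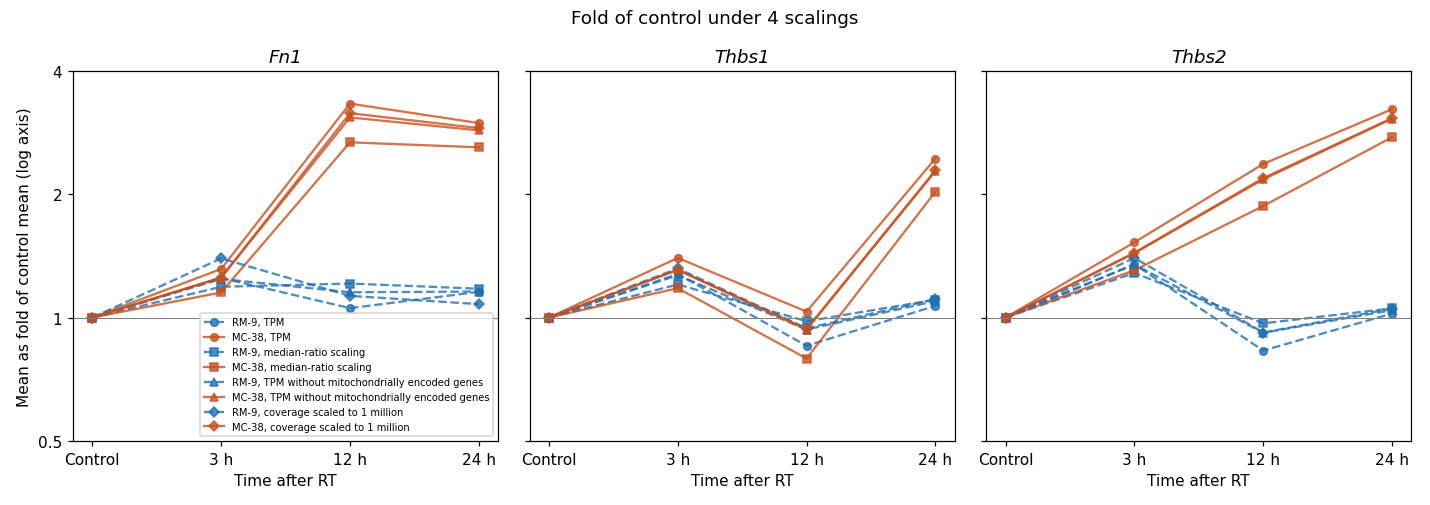
Group mean as a fold of the control mean (y axis, log scale) for Fn1, Thbs1 and Thbs2, with MC-38 as solid orange lines, RM-9 as dashed blue lines and a marker for each of the 4 scales. The MC-38 lines for Fn1 and Thbs2 lie above 1 at 12 h and 24 h on each scale, and Thbs1 crosses 1 at 12 h on 3 scales.

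Neighbours of the 8 genes in the matrix were read from 5 lists with 94 genes in all, of which 75 were tested in MC-38 and 74 in RM-9. In MC-38 at 3 h, 0 passed the test, against 0.0637% of all genes. At 12 h, 22 rose and 2 fell, or 29.3% and 2.67% of those tested, against 28.5% and 2.59% of all genes. At 24 h 22 rose and none fell, so that 29.3% rose against 13.2% of all genes. From 3 h to 24 h 7 rose and 0 fell, 9.33% against 1.98% of all genes. In RM-9, 0 passed the test at any time, with 7, 15 and 5 at an unadjusted p under 0.05 at 3, 12 and 24 h. With median-ratio scaling the split in MC-38 at 12 h was 6 higher and 5 lower, and at 24 h 13 higher and 2 lower. At 12 h the same scaling left 995 genes of all higher and 1544 lower, in place of 4469 higher and 406 lower. Single mice also moved these counts: at 12 h, 24 genes called became 12 without control mouse 1, 15 without control mouse 4, 14 without 12 h mouse 2 and 11 without 12 h mouse 4, and at 24 h 22 became 14 without 24 h mouse 2 or 4 and 15 without control mouse 1. Of the genes called with all mice, 12 of 24 at 12 h and 14 of 22 at 24 h were still called without control mouse 1.

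In TPM, receptors and assembly factors held most of the pathway genes that rose, and at 12 h the receptor calls depended on the scale. Against 28.5% higher and 2.59% lower of all genes, 8 of 17 receptors tested rose at 12 h and 1 fell. These included the integrin subunit Itgav (log2 0.72), which pairs to bind fibronectin and osteopontin, the hyaluronan and osteopontin receptor Cd44 (0.62), and Lrp1 (0.69), a clearance receptor that takes up thrombospondins. At 24 h, 7 of 17 rose, against 13.2% of all genes. The receptors that rose then included Itga5 (0.79), the alpha chain of the classical fibronectin receptor, Cd44 (0.69) and calreticulin, Calr (0.79), a partner of Lrp1. With median-ratio scaling, 0 of the 8 higher receptors were still called at 12 h and 5 of the 7 at 24 h. The direction of the named ones stayed the same, with Itgav, Cd44 and Lrp1 at an adjusted p of 0.0841, 0.0563 and 0.243 at 12 h. At 12 h, Itgav and Lrp1 had adjusted p = 0.0518 and 0.0975 without the first control mouse.

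In the list of matrix assembly and crosslinking genes, 10 of 22 tested rose at 12 h and 10 at 24 h, and none fell. Of all genes, 28.5% rose at 12 h and 13.2% at 24 h. Fbn1, which encodes the microfibril protein fibrillin-1, had a mean of 18.3 ± 1.88 TPM in control, 43.4 ± 9.89 at 12 h and 49.8 ± 28.4 TPM at 24 h (SD, n = 4). Its log2 fold changes were 1.20 (SE 0.29, adjusted p = 0.0148) and 1.27 (SE 0.29, adjusted p = 0.0118). P4ha2 (0.89) and P4ha3 (0.86), subunits of the prolyl 4-hydroxylase that stabilises collagen, rose at 12 h. At 24 h the collagen crosslinking oxidase gene Loxl3 (0.90) and the latent TGF-beta binding protein gene Ltbp1 (0.82) rose. With median-ratio scaling, 4 of these 10 genes were still called at 12 h and 5 of 10 at 24 h. The adjusted p on that scale was 0.103 for P4ha2, 0.238 for P4ha3 and 0.0756 for Fbn1 at 12 h, and 0.125 for Loxl3 at 24 h. Without the first control mouse it was 0.119 for P4ha2 and 0.120 for P4ha3 at 12 h and 0.0740 for Loxl3 at 24 h, and for Fbn1 0.0403 at 12 h and 0.0337 at 24 h.

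The thrombospondin relative Thbs3 rose from 20.4 ± 4.72 TPM in control to 35.6 ± 3.54 at 12 h (log2 0.81, adjusted p = 0.0109) and 39.4 ± 6.27 TPM at 24 h (log2 0.95, adjusted p = 0.00334). It was the 1 of 5 genes called in the list of thrombospondin and tenascin relatives at each time. Of all genes, 28.5% rose at 12 h and 13.2% at 24 h. Of the other matricellular proteins, 2 of 20 rose and 1 fell at 12 h, against 28.5% and 2.59% of all genes. Smoc1 (0.58), a SPARC relative, and Efemp2 (0.55), a fibulin, rose, and Plau, the urokinase-type plasminogen activator, fell by 0.49 on the log2 scale. At 24 h Plau rose by 0.53 on the log2 scale and Efemp2 by 0.67. With median-ratio scaling, Plau fell by 0.83 at 12 h (adjusted p = 0.0128), and at 24 h it was 0.27 higher with adjusted p = 0.373. The same scaling ended the 12 h calls of Smoc1 (log2 0.25, adjusted p = 0.0585) and Efemp2 (log2 0.20, adjusted p = 0.123). Without the first control mouse, the adjusted p was 0.0722 for Smoc1 at 12 h and 0.0769 and 0.0545 for Plau at 12 h and 24 h, while Thbs3 had log2 values of 0.64 and 0.78 and stayed called.

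Among the versican partners, the versican-cleaving protease gene Adamts4 held 8.70 ± 1.68 TPM in control, 16.1 ± 0.85 at 12 h and 20.0 ± 4.56 TPM at 24 h. Its log2 fold changes were 0.87 (SE 0.16, adjusted p = 0.00719) and 1.15 (SE 0.16, adjusted p = 6.4e-04). Hmmr, a hyaluronan-binding gene that also acts in mitosis, rose at 24 h against control by 0.70 and from 3 h to 24 h by 1.46 on the log2 scale (adjusted p = 0.00368). Between 3 h and 24 h the other genes that rose were Fbln2 (1.05), Adamts4 (0.69), Calr (0.55), Ltbp1 (0.90), Plod1 (0.47) and Tgm2 (0.57), the transglutaminase that crosslinks fibronectin. Median-ratio scaling ended the calls of Fbln2 (adjusted p = 0.0589) and Tgm2 (0.122) from 3 h to 24 h and of Hmmr against control (0.0863), and Tgm2 had 0.0533 without mitochondrially encoded genes. Without the first control mouse, the adjusted p of Hmmr against control was 0.135, and Adamts4 had log2 values of 0.78 at 12 h and 1.07 at 24 h and stayed called. Leaving out single mice gave 2 to 6 called genes in place of 7, with 2 without 3 h mouse 2 or 24 h mouse 4, 3 without 3 h mouse 1 or 24 h mouse 3, and 4 without 24 h mouse 1 or 2.

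**Figure D5:**
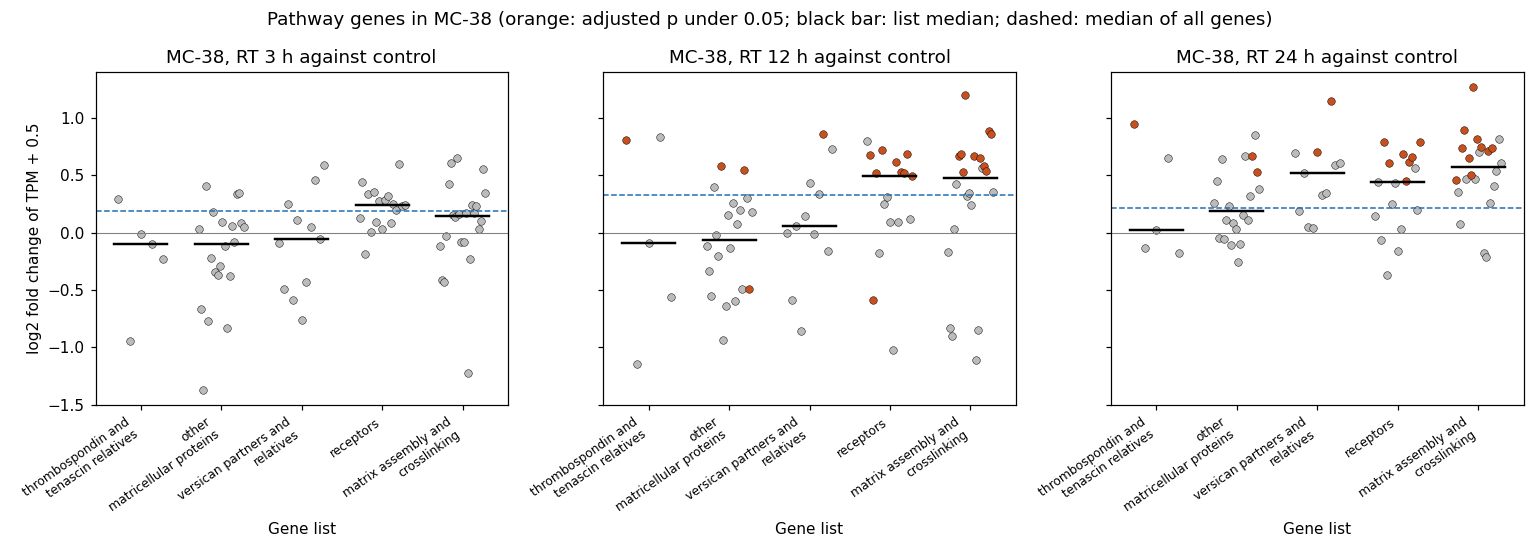
log2 fold change against control (y axis) of the pathway genes in MC-38 tumors at 3, 12 and 24 h, by list, with orange points for an adjusted p under 0.05, black bars for list medians and a dashed line for the median of all genes. At 3 h no pathway gene passed the test, and at 24 h the 22 genes that did all lie above 0.

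Genes that followed Fn1 across libraries were ranked by the Pearson correlation of log2(TPM + 0.5), as a description over libraries that share groups. Over the 16 MC-38 libraries and 10923 genes, the highest were Qsox1 (r = 0.958), Col18a1 (0.957), Aebp1 (0.953), Micall2 (0.944) and Lamc1 (0.942). Over the 15 RM-9 libraries and 8704 genes they were Col18a1 (0.905), Rai14 (0.892), Syne1 (0.891), Mxi1 (0.876) and Qars (0.870). Col18a1, which encodes the basement membrane collagen XVIII, was in both sets.

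Markers of other cells also differed between some of the groups. The 9 macrophage markers, mostly C1qa, C1qb and C1qc, summed to 837 to 1330 TPM in control MC-38 tumors, 318 to 728 TPM at 12 h and 674 to 838 TPM at 24 h. At 12 h, 5 of 9 fell, among them Csf1r (log2 -1.32), against 2.59% of all genes. The mean was lower in 7 of 9 at 12 h, and Mertk was higher, at 5.81 against 5.15 TPM. Cd68 held 82.8 TPM in control, 70.6 at 12 h and 112 TPM at 24 h. In RM-9 at 12 h 5 of 9 also fell, where 8.37% of all genes were called in either direction. None of these 5 RM-9 markers stayed called on any of the 3 other scales, where the adjusted p ran from 0.0581 to 0.632. Csf1r there had an adjusted p of 0.135 under median-ratio scaling. The 8 endothelial markers summed to 49.0 to 65.8 TPM in control and 65.1 to 83.9 TPM at 24 h in MC-38, against 44.9 to 55.7 TPM at 3 h. From 3 h to 24 h, 2 of the 8 rose, Kdr by 0.76 and Cdh5 by 0.71 on the log2 scale, against 1.98% of all genes. With median-ratio scaling the adjusted p was 0.0188 for Kdr and 0.0889 for Cdh5. The 10 fibroblast markers overlapped between MC-38 groups, at 116 to 173 TPM in control, 95.8 to 146 TPM at 12 h and 125 to 175 TPM at 24 h. At 12 h, 7 of the 10 had a lower mean than in control and the median of the list was -0.58 on the log2 scale, with Dpt at 12.1 and 4.75 TPM and Mfap5 at 29.6 and 16.7 TPM in control and at 12 h, though neither passed the test. Of the other 3, Pdgfra and Twist1 rose (log2 0.92 and 0.51), where 28.5% of all genes rose. Twist1 had an adjusted p of 0.123 under median-ratio scaling and 0.0573 without the first control mouse. The summed platelet markers were nearly all Pf4, at a mean of 31.004 TPM in control, 15.5 at 12 h and 18.4 TPM at 24 h in MC-38, while Itga2b was at 1.73, 3.31 and 2.16 TPM, and 4 of the 9 were at 0 in control. No marker of the fibroblast, macrophage or endothelial lists was at 0 in any group, and their part in the results was not tested.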

How the data were processed

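Messenger RNA of 31 tumors was sequenced as single-end 75-base reads from a stranded library kit. The submitters' processing notes name GRCm39 and bcl2fastq 2.17, and the aligner and counting program are not given in the sources used here. The coordinates fitted GENCODE M21 (GRCm38), with the same chromosome for 100% of 45223 shared genes and the same start or end for 91.1%, and are given as GRCm38. The authors deposited TPM per gene, which sums to a fixed total in a library and includes mitochondrially encoded genes. The deposited FPKM was used here only to compute depth. Coverage, deposited as mean read depth per base, was an alternative measure. The ratio of FPKM to coverage differed between genes and was 42.4 times its usual value for mt-Nd4l. Repeated rows of a gene were summed. Read counts per gene are not among the values used here, so the spread between mice is the only error given.

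TPM was taken to log2 after a pseudocount of 0.5, which understates the change of low genes, and was fitted by limma (version 3.58.1, R 4.3.3; lmFit, eBayes with an intensity trend). The 4 groups of a tumor model shared 1 fit, and the contrast between models came from 1 fit of all 31 libraries. The filter was a mean TPM of 0.5 or more, from which the 8 genes were exempt, and left 14013 genes in RM-9, 15698 in MC-38 and 15358 in all libraries. Benjamini-Hochberg adjustment covered all genes of a comparison, with a threshold of 0.05. Mean TPM of single genes was also compared by an exact two-sided permutation test. Scripts were tested on simulated data. The mice were separate animals, and their numbers, which did not pair them, formed a block only in an alternative. No pair of libraries in a group held the same values. Other software was Python 3.11.15 with matplotlib 3.10.9, scipy 1.17.1, pandas 2.3.3 and numpy 2.4.6.

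The 8 genes and the lists of pathway and marker genes were chosen with earlier results of these data known. From each pathway list and comparison the text names up to 3 genes that rose most and 3 that fell most, if they passed the adjusted threshold of 0.05 and the groups did not overlap. Genes like Fn1 were the 5 of highest correlation in each model, at a mean of 5 TPM or more. Marker genes named with values were chosen after their values were seen. Alternatives were a pseudocount of 0.1 or 1 TPM, no filter or a mean of 5 TPM, median-ratio scaling, removal of mitochondrially encoded genes, eBayes without trend, a fit of only the groups compared, a replicate block, a Dunnett comparison and each mouse left out in turn. Coverage scaled to a common sum was added after seeing the data.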

Additional observations from a re-analysis of the deposited data

Results flagged for a closer look

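The lowest of the 4 Spp1 values in MC-38 tumors at 24 h, 1051 TPM in the first mouse, lay far from the other 3, which held 1784 to 1933 TPM, by Dixon's criterion at the 95% level. Such a gap arises by chance in about 1 group in 20, and 8 genes in 8 groups gave many chances for one. The same mouse had the highest Fn1, Thbs1 and Thbs2 of its group. It also had the highest Tnc (55.9 TPM), Postn (226 TPM), Sparc (704 TPM) and Vcan (6.87 TPM) there.

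Thbs2 at 12 h was 0.831 of the control mean in RM-9 and 2.37 times the control mean in MC-38, and in TPM every mouse lay below the control mean in RM-9 and above it in MC-38. The RM-9 value was 0.968 with median-ratio scaling, 0.918 without mitochondrially encoded genes and 0.919 with coverage, where 3 of 4 mice lay below the control mean, and the median log2 difference of all RM-9 genes at 12 h in TPM was -0.19. The difference at 12 h was not tested, because the choice of genes used the MC-38 groups involved.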

How the results depend on the processing

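With the 8 genes, the number called in MC-38 between 3 h and 24 h, 2 with TPM, was 0 without a filter on low values, in a fit of only the groups compared and with a replicate block, and 1 with eBayes without trend. For the difference between models it was 0, and 1 with a pseudocount of 1 TPM, median-ratio scaling or mitochondrially encoded genes removed and 2 with coverage. Without a filter the adjusted p of Fn1 and Thbs2 was 0.0984 and 0.0741. Leaving out 1 mouse gave 0 to 2 of 8 between 3 h and 24 h in MC-38 and 0 to 1 for the difference between models.

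The mouse numbers did not pair the mice: same-number correlations of deviations from the group means ran from -0.389 to 0.317 in RM-9 and -0.483 to 0.554 in MC-38, and 3 of 15 and 4 of 16 libraries correlated best with their own number. With the replicate block, 0 of the 8 genes and 3 pathway genes were called between 3 h and 24 h in MC-38, with adjusted p of 0.0691 for Fn1 and 0.0611 for Thbs2. No other count of calls changed by over 1.5 times with the block.

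The number of pathway genes called in MC-38 between 3 h and 24 h, 7, was 3 without a filter, 14 with median-ratio scaling or mitochondrially encoded genes removed, 4 with eBayes without trend and 19 with coverage. At 12 h in MC-38 it was 24, and 15 without a filter, 11 with median-ratio scaling and 7 in a fit of only the groups compared. At 24 h in MC-38 it was 22, and 4 in a fit of only the groups compared. At 3 h in MC-38 it was 0, and 1 with median-ratio scaling or coverage. In RM-9 it was 0 at each time, and 4 at 3 h with coverage and 2 at 12 h with a pseudocount of 0.1 TPM. Leaving out 1 mouse gave 0 to 2 at 3 h and 12 h in RM-9, and in MC-38 0 to 1 at 3 h, 11 to 32 at 12 h, 14 to 26 at 24 h and 2 to 6 between 3 h and 24 h.

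Levels in control tumors, MC-38 minus RM-9 on the log2 scale, moved by median-ratio scaling from -1.37 to -2.05 for Fn1, -0.26 to -0.93 for Thbs1, 0.56 to -0.11 for Thbs2, -0.72 to -1.39 for Spp1, -1.43 to -2.10 for Tnc, 0.31 to -0.36 for Postn, -0.10 to -0.78 for Sparc and 0.45 to -0.22 for Vcan. Without mitochondrially encoded genes they were -1.81 for Fn1, -0.69 for Thbs1, 0.13 for Thbs2, -1.15 for Spp1, -1.86 for Tnc, -0.12 for Postn and -0.53 for Sparc.

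Signs also turned for values that did not pass the test. In RM-9, Spp1 at 3 h was 0.015 with coverage, Spp1 at 12 h was 0.16 with median-ratio scaling, 0.082 without mitochondrially encoded genes and 0.092 with coverage, and Sparc at 12 h was 0.086 and 0.013 with the first 2 of these. For the difference between models, Spp1 was -0.075 with median-ratio scaling and -0.0017 without mitochondrially encoded genes, and Vcan was 0.36 with coverage. The cause of these changes was not tested. Depth limits mainly Vcan, the gene with the lowest TPM.
Leaving out 1 mouse turned the sign of these log2 values, given as the lowest to the highest. For RM-9 3 h vs Control, the values were Spp1 -0.15 to 0.059, Tnc -0.11 to 0.24 and Vcan -0.10 to 0.26. For RM-9 12 h vs Control, the values were Fn1 -0.075 to 0.28, Spp1 -0.17 to 0.034 and Sparc -0.25 to 0.012. For RM-9 24 h vs Control, the values were Fn1 -0.19 to 0.44, Thbs1 -0.093 to 0.22, Thbs2 -0.088 to 0.16, Spp1 -0.12 to 0.27, Tnc -0.011 to 0.41, Postn -0.36 to 0.010 and Sparc -0.11 to 0.20. For RM-9 24 h vs 3 h, the values were Fn1 -0.53 to 0.098, Spp1 -0.078 to 0.30 and Tnc -0.087 to 0.33. For MC-38 minus RM-9, 24 h vs 3 h, the values were Spp1 -0.15 to 0.25 and Vcan -0.25 to 0.13.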
